A study of Mus musculus with 5 samples.

Results

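Runx1, Runx2, Runx3 and Cbfb encode the core binding factors, and the chromatin around these 4 genes was followed in forelimb buds of mouse embryos that did or did not lose the BAF subunit gene Smarcc1 in limb mesenchyme. The 5 deposited lists of open chromatin peaks were merged wherever peaks shared at least 1 bp, and every merged region in, or within 150 kb of, a member's mm10 gene body was assigned to that member. Of 86713 merged regions, 152 belonged to a member: 41 to Runx1, 22 to Runx2, 55 to Runx3 and 34 to Cbfb. No region belonged to more than 1 member.

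The assay was ATAC-seq, in which a transposase cuts accessible DNA and the cut fragments are sequenced. Each of the 5 libraries came from about 50000 cells of the anterior forelimb pair of a single embryo at stage E11.5, with 40 to 48 somites. The 2 controls were Prx+/+;Smarcc1c/c and the 3 mutants were PrxCre/+;Smarcc1c/c, so all 5 embryos carried the conditional Smarcc1 allele and only the mutants carried Cre. PrxCre is driven by a limb mesenchyme enhancer, so ectoderm, blood, endothelium and immigrant muscle precursors of a mutant bud are expected to keep the gene. The series asks whether the BAF chromatin remodelling complex is needed for repression by GLI transcription factors.

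RUNX proteins bind DNA through the runt domain, at sites whose core reads ACCACA on one strand and TGTGGT on the other. CBFB, the protein of Cbfb, does not contact DNA but joins each of the RUNX proteins and strengthens its binding. RUNX2 is required for osteoblasts to form and for cartilage cells to enlarge, and RUNX3 acts with it in cartilage maturation and also in sensory neurons and T cells. RUNX1 is known above all for the emergence of blood stem cells from embryonic endothelium, although it is also made in other tissues. Runx genes of vertebrates are read from a distal promoter, P1, and a proximal promoter, P2, which give proteins with different N termini. An embryonic limb bud at this stage is largely undifferentiated mesenchyme, before bone is formed.

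The promoter sequences show how unlike P1 and P2 are, and they are printed because the open chromatin at the members differed between these starts. RefSeq sequences of build GRCm38.p6 (mm10) were found for 4 of 4 members, with 2 starts each for Runx1 and Runx3 and 1 each for Runx2 and Cbfb. Of the paired starts, the upstream one stands at the place of P1 and the downstream one at that of P2. The 250 bases before the upstream start of Runx1 (chr16:92826075-92826324, minus strand), of the listed start of Runx2 (chr17:44814628-44814877, minus strand) and of the upstream start of Runx3 (chr4:135120395-135120644, plus strand) are given here 5′ to 3′, with ACCACA in capitals.
Runx1 upstream start: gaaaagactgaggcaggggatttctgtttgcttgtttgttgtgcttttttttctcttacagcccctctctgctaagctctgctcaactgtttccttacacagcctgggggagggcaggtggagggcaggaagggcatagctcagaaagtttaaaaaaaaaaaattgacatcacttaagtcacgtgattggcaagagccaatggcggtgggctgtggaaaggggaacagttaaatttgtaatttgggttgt
Runx2 start: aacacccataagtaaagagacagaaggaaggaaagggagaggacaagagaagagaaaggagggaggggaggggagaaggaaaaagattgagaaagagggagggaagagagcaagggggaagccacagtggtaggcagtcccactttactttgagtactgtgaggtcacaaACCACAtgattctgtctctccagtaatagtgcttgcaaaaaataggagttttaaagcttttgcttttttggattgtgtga
Runx3 upstream start: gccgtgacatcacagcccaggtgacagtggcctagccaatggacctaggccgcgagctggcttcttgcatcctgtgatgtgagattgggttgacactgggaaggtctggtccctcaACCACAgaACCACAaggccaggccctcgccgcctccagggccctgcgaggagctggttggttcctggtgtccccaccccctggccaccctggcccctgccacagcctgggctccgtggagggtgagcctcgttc
The 250 bases before the downstream starts of Runx1 (chr16:92697330-92697579, minus strand) and Runx3 (chr4:135152295-135152544, plus strand) are given with each CpG in capitals.
Runx1 downstream start: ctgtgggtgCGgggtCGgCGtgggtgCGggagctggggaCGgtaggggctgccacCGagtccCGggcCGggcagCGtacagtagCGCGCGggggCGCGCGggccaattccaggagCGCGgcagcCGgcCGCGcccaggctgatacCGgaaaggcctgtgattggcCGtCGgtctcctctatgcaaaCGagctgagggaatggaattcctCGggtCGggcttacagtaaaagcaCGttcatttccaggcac
Runx3 downstream start: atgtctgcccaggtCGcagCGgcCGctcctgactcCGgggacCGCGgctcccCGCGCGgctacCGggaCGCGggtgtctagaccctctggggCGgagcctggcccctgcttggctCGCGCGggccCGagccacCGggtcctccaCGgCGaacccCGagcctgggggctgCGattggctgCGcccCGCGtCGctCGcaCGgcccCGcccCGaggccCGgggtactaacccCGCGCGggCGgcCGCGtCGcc

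Upstream starts of the Runx genes were poor in CpG and the downstream starts were rich in it. In the 300 bases from 250 before to 50 after the start, Runx1 held 2 CpG at its upstream and 35 at its downstream start. For Runx3 the counts were 8 and 45. The listed start of Runx2 held 2 and that of Cbfb 30, beside a median of 13 over 21045 RefSeq promoters. A stretch of 18 bases, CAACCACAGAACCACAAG, which holds ACCACA at 2 places, was present at the upstream starts of Runx1 and Runx3 and at the listed start of Runx2, and in none of the other promoters (3 of 21045, or 0.0143%, counting both strands). This stretch lay after the start at Runx1 and Runx2 and before the start at Runx3. It is the longest stretch that the 3 starts share on the coding strand, and the search was made after the sequences had been seen, so its count is a description. The 25 bases around it are shown for the 3 genes, at chr16:92826028-92826052 (minus strand), chr17:44814586-44814610 (minus strand) and chr4:135120505-135120529 (plus strand), with ACCACA in capitals.
Runx1 shared stretch: taaacaACCACAgaACCACAagttg
Runx2 shared stretch: caaacaACCACAgaACCACAagtgc
Runx3 shared stretch: ccctcaACCACAgaACCACAaggcc
ACCACA on either strand was found in 14.7% of the 21045 promoters, and at least 2 copies in 1.45%. The downstream starts of Runx1 and Runx3 and the start of Cbfb held none. A match of letters is a description and shows no binding.

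Peak lists were of unequal length. The controls held 68959 and 60333 peaks, and mutants 1, 2 and 3 held 36719, 42794 and 27194. A region is called present in a library when at least 1 peak of that library lies in it. The lists give no read totals, so the depth behind a peak is unknown and a region without a peak is one in which no peak was called. Folds rise in even steps, from which a background of 4.77 and 6.42 fragments per position was computed for controls 1 and 2 and of 5.48, 5.09 and 4.94 for mutants 1, 2 and 3, as a guide to relative depth where libraries were handled alike. Control 1, with the lowest of these, had the longest list. The fold printed for a region is the peak caller's enrichment over background as the authors deposited it, taken for the strongest peak. Folds are not scaled between libraries. They are compared here within a library, except that the mean of both controls' folds, or of their percentiles in each list, orders regions by strength, from the same 2 libraries for every region. The smallest fold listed ranged from 2.29 to 2.52 over the 5 libraries, so a fold near these values stands close to the limit of the list.

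Labels of tissue were checked by peaks within 1 kb of a gene end. All 8 limb mesenchyme markers, among them Prrx1 and Twist1, had one in every library but mutant 3, where 7 did. Of 9 blood markers 5 had a peak in each control and 5, 5 and 4 in mutants 1, 2 and 3, while Gata1, Ptprc, Cd53 and Laptm5 had none in any library. The endothelial list of 8 gave 4 and 2 in the controls against 2, 3 and 2 in the mutants, with Cdh5, Pecam1 and Emcn at none. Muscle precursor markers had a peak at 6 and 5 of 6 genes in the controls and at 4, 5 and 1 in the mutants. For ectoderm the counts were 5 and 5 of 7 against 5, 5 and 3, and for neural crest and glia 5 and 4 of 5 against 4, 5 and 4. Markers of later skeleton gave 3 and 3 of 6 against 2, 4 and 2, with Ibsp and Col10a1 at none. A peak at a gene end may belong to a neighbouring gene. The part of these other cells in the results was not tested. In such a mixed tissue, fewer cells with an open region and less access per cell cannot be told apart.

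**Figure D1:**
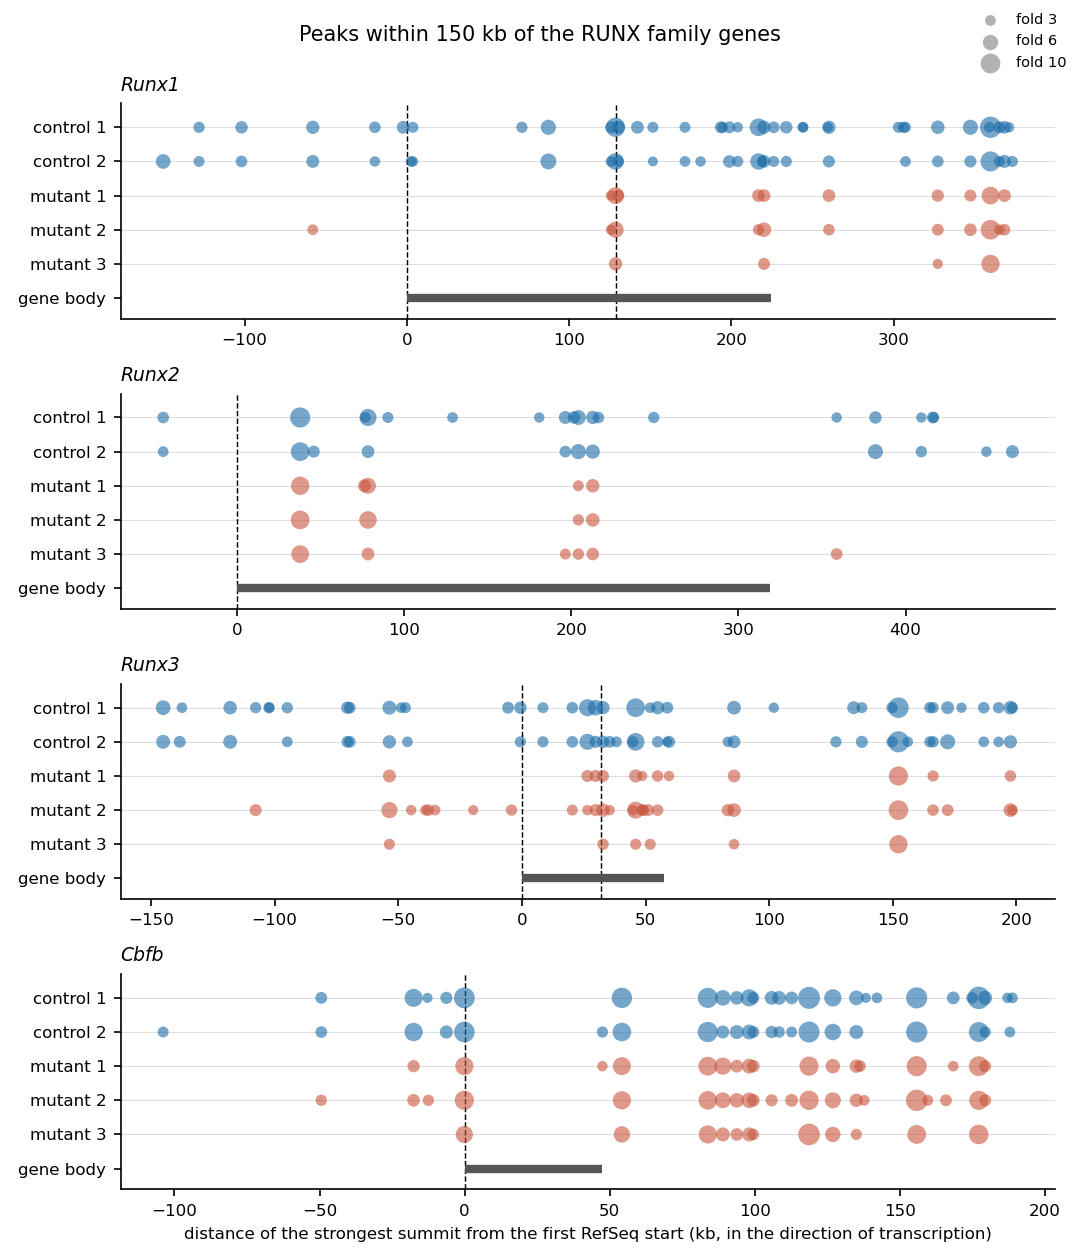
Maps of the 4 loci, with the distance from the upstream start in kb on the horizontal axis and 1 row per library. Each mark is a merged region with a peak in that library, its area scaled to the authors' fold, the grey bar is the gene body and dashed lines are RefSeq starts. Of the 41 regions of Runx1, 36 and 29 are marked in the controls against 10, 11 and 4 in the mutants.

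Regions of all 4 members carried peaks less often in every mutant than in either control. For Runx1, 36 and 29 of 41 regions had a peak in the controls (87.8% and 70.7%) and 10, 11 and 4 did in mutants 1, 2 and 3 (24.4%, 26.8% and 9.76%). Runx2 had 18 and 11 of 22 in the controls (81.8% and 50.0%) and 5, 4 and 6 in the mutants (22.7%, 18.2% and 27.3%). The values of Runx3 were 37 and 34 of 55 (67.3% and 61.8%) against 12, 26 and 6 (21.8%, 47.3% and 10.9%). Groups did not overlap for any of these 3 genes, but the distance between the lowest control and the highest mutant was narrower for Runx3, where mutant 2 stood above the other mutants. Cbfb had peaks in 26 and 22 of 34 regions in the controls (76.5% and 64.7%) and in 17, 21 and 12 in the mutants (50.0%, 61.8% and 35.3%), so that mutant 2 lay just below control 2.

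Group means put Runx1 at the largest difference of the 4 genes. It averaged 79.3 ± 12.1% (SD, n = 2) in the controls against 20.3 ± 9.23% (SD, n = 3) in the mutants, a difference of -58.9 percentage points. Runx2 gave 65.9 ± 22.5% and 22.7 ± 4.55% (-43.2 points), and Runx3 gave 64.5 ± 3.86% and 26.7 ± 18.7% (-37.9 points). For Cbfb the means were 70.6 ± 8.32% and 49.0 ± 13.3% (-21.6 points). Each of these differences had p = 0.2 in a two-sided exact permutation test over the 5 libraries, which is the smallest p that 2 against 3 libraries can give, so none could pass 0.05. Over all 86713 regions the shares were 75.3% and 65.0% in the controls against 37.4%, 44.8% and 27.3% in the mutants, a difference of -33.7 points, so the lists as a whole differed in the same direction.

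Set against all regions of the same library, with every listed peak, the values of Runx1 and Cbfb differed from those of all regions in opposite directions, within a design that cannot pass the threshold. Runx1 stood 12.5 and 5.73 points above the share of all regions in the controls and at -13.0, -18.0 and -17.5 points in mutants 1, 2 and 3. The difference was -25.3 points, without overlap between the groups (exact permutation p = 0.2). Cbfb stood at 1.19 and -0.30 points in the controls and at 12.6, 17.0 and 8.04 points in the mutants, a difference of 12.1 points, also without overlap (exact permutation p = 0.2). Both differences shrank, and the groups overlapped, under several other settings. That of Runx1 was -7.37 points with lists of equal length (exact permutation p = 0.6), -16.4 for peaks with a −log10 q of at least 5 and -8.14 for those of at least 10 (exact permutation p = 0.4 for each). That of Cbfb was 5.93 points with lists of equal length (exact permutation p = 0.8), 4.33 over distal regions only (exact permutation p = 0.6) and -5.22 over regions nearest to its ends (exact permutation p = 0.8). The groups of Runx2 (-9.51 points) and Runx3 (-4.21 points) overlapped, with an exact permutation p = 0.6 for each, so a difference from all regions was not detectable beyond the spread between libraries. That of Runx2 came to -0.33 points without mutant 2, -25.0 without control 2, -14.5 without control 1 and -16.2 without mutant 3. The value of Runx3 was -15.1 points without mutant 2 and between -3.31 and -0.36 without any other library.

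The same shares were computed with lists of equal length. That cut removes any difference in the number of peaks by design, and why the lists differ in length was not tested. When each list was limited to its 27194 strongest peaks, the length of the shortest, the difference between mutants and controls became -11.54 points for Runx1, -1.85 for Runx2, -1.85 for Runx3 and 1.75 for Cbfb. The groups then overlapped for every member (exact permutation p = 0.6 for Runx1 and 1 for each of the others). No difference was detectable beyond the spread between libraries. Minus all regions of the same cut lists, the values were -7.37 points for Runx1, 2.32 for Runx2, 2.32 for Runx3 and 5.93 for Cbfb. The difference over all regions thus shrank under this cut as well, and the change is not particular to the members.

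**Figure D2:**
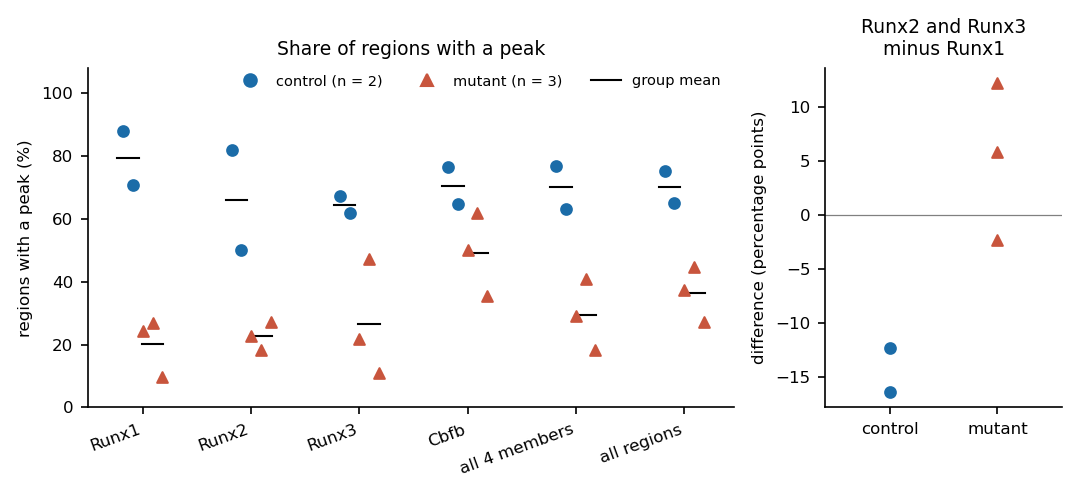
Left, percent of regions with a peak for each member, for the 4 together and for all merged regions, 1 point per library (2 controls, 3 mutants), with group means as lines. Right, the percent for Runx2 and Runx3 minus that for Runx1, in percentage points. Runx1 lies at 87.8% and 70.7% in the controls and between 9.76% and 26.8% in the mutants, and the right panel rises from -16.4 and -12.3 to between -2.31 and 12.1.

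Skeletal and blood members were then set against each other. Regions of Runx2 and Runx3 together had a peak in 71.4% and 58.4% of 77 cases in the controls against 22.1%, 39.0% and 15.6% in the mutants. The skeletal share minus that of Runx1 was -16.4 and -12.3 points in the controls against -2.31, 12.1 and 5.83 points in the mutants. Runx1 regions thus had a peak more often in both controls, and the order was reversed in mutants 2 and 3. This contrast was 19.5 points higher in the mutants (-14.3 ± 2.89 against 5.22 ± 7.24, SD, n = 2 and 3), without overlap and with an exact permutation p = 0.2, the smallest possible. It was 10.8 points without mutant 2 and 30.0 points without control 1. Taken alone against Runx1, Runx3 gave 21.1 points without overlap (exact permutation p = 0.2) and Runx2 15.8 points with overlapping groups (exact permutation p = 0.4). Within 50 kb of the gene bodies the contrast was 39.0 points (exact permutation p = 0.2). It was 9.69 points with lists of equal length (exact permutation p = 0.6). Peaks with a −log10 q of at least 5 gave 7.22 points (exact permutation p = 0.8), and those of at least 10 gave 0.15 points. The groups overlapped in all of these settings but that of 50 kb. In mutant 2, 8 of the Runx3 regions had a peak in that library alone. In mutant 3, Runx3 (10.9%) and Runx1 (9.76%) were close and Runx2 stood higher (27.3%). Over regions with a peak in both controls, mutants 1, 2 and 3 had 42.4%, 48.5% and 30.3% of the skeletal regions. For Runx1 these shares were 41.7%, 45.8% and 16.7%.

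Regions with a peak in both controls were the more dependable set, and a large part of them was absent from every mutant, here called lost. For Runx1 this held for 12 of 24 (50.0%, 95% Clopper-Pearson interval 29.1 to 70.9), beside 30.4% of the 45158 regions of the whole series that both controls shared and 28.1% of those within 150 kb of a protein-coding gene. Runx3 lost 13 of 25 (52.0%, 31.3 to 72.2), Runx2 3 of 8 (37.5%, 8.52 to 75.5) and Cbfb 2 of 19 (10.5%, 1.30 to 33.1). The skeletal pair, with 16 of 33 (48.5%), and Runx1, with 50.0%, were close in this count, but the interval of each is wide. These intervals cover counting error only, and regions of a locus are not independent. With absence from at least 2 of the 3 mutants instead, Cbfb moved most, to 5 of 19 (26.3%), and Runx1 came to 15 of 24 (62.5%), Runx2 to 4 of 8 (50.0%) and Runx3 to 15 of 25 (60.0%), beside 42.5% over the series. Regions kept by all 3 mutants numbered 4, 4, 5 and 12 for Runx1, Runx2, Runx3 and Cbfb, beside 43.4% over the series.

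The members differed in where their regions lay. Distal regions, more than 1 kb from either end of every protein-coding gene, were absent from all mutants in 42.0% of 31183 cases over the series, and gene-end regions in 4.64% of 13975. The P2 starts of Runx1 and Runx3 lie inside their genes and were classed as distal. Only 16 of the 34 regions of Cbfb were distal, against 38 of 41 for Runx1, 21 of 22 for Runx2 and 53 of 55 for Runx3. Among distal regions of both controls, 12 of 22 were absent for Runx1 (54.5%), 3 of 7 for Runx2 (42.9%), 12 of 23 for Runx3 (52.2%) and 1 of 5 for Cbfb. Those kept by all mutants were 2, 3, 4 and 0, beside 26.4% of distal regions over the series. Counting for each region the share absent in its class and its decile of control strength, 11.6 absent regions would be counted for Runx1, 3.00 for Runx2, 11.3 for Runx3 and 2.56 for Cbfb, close to the observed 12, 3, 13 and 2. Without control 2 the counts over regions of the remaining control were 26 of 36 for Runx1 (72.2%), 12 of 18 for Runx2 (66.7%) and 8 of 26 for Cbfb (30.8%). Without control 1, Runx2 gave 7 of 12 (58.3%) and Cbfb 4 of 23 (17.4%), and without mutant 2 Cbfb gave 5 of 19 (26.3%).

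**Figure D3:**
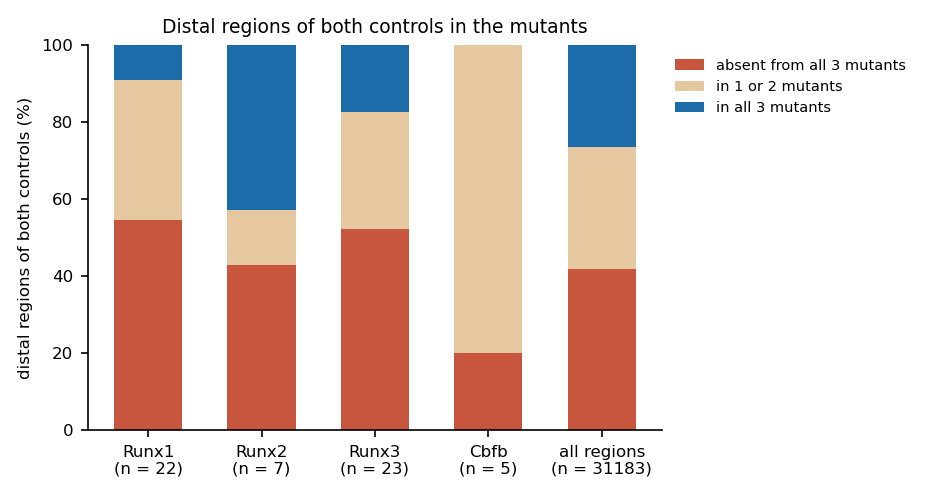
Stacked bars of the distal regions with a peak in both controls, in percent, divided into those absent from all 3 mutants, present in 1 or 2 and present in all 3, for each member and for all distal regions, with the number of regions under each bar. Absence is 54.5% for Runx1 and 52.2% for Runx3, beside 42.0% over all distal regions.

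Regions without a peak in any mutant numbered 29 of 41 for Runx1, 15 of 22 for Runx2, 27 of 55 for Runx3 and 10 of 34 for Cbfb, beside 45.8% over the series. No region of a member was present in all 3 mutants and no control, and over the whole series 42 of 86713 were (0.0484%). Without mutant 3 there was 1, in the body of Runx3 at chr4:135169228-135169538, with folds of 2.62 and 3.45 in mutants 1 and 2. Regions with a peak in mutants only numbered 0 for Runx1, 1 for Runx2, 9 for Runx3 and 5 for Cbfb, and the share over all regions was 11.8%. Of the 9 at Runx3, 8 rested on mutant 2 alone, which is 14.5% of its regions beside 8.03% of all regions. They lay between -44.8 and 51.0 kb from the upstream start, with folds of 2.63 to 3.61, near the lower limit of the list.

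Promoters of Runx1 and Runx3 divided by start, and a P2 start of Runx2 was not listed and so not examined. The downstream start of Runx1, 128.7 kb into the gene, lay in a region (chr16:92696591-92699474) with folds of 9.54 and 7.14 in the controls against 7.25, 6.73 and 4.54 in mutants 1, 2 and 3. At Runx3 the downstream start, 31.9 kb into the gene, lay in chr4:135151161-135154147, with folds of 4.51 and 4.04 in the controls against 3.70, 4.76 and 3.36 in the mutants. Both CpG-rich starts were thus in open chromatin in all 5 libraries. The start of Cbfb lay in chr8:105169713-105171931, with folds of 11.1 and 10.9 in the controls against 8.49, 9.53 and 7.57 in the mutants, also open throughout.

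The CpG-poor upstream starts had no region open in all libraries. At Runx3 a region ended 37 bp before the upstream start (chr4:135119687-135120608), covered 214 of the 250 bases printed above and included the shared stretch with ACCACA at 2 places. Its folds were 3.99 and 3.23 in the controls, and no mutant had a peak there. At Runx1 no region lay within 1 kb of the upstream start in any library, and the nearest, 2193 bp away (chr16:92828267-92828502), had a peak only in control 1, with a fold of 4.16. The listed start of Runx2 also had none, the nearest region being the start of the neighbouring gene Supt3, 36609 bp away. Over the series, both controls had a region within 1 kb of 21.0% of 8985 RefSeq starts with fewer than 10 CpG and of 93.7% of 12060 with 10 or more. Such regions were absent from all mutants at 11.1% of 1885 starts of the first kind, to which all upstream Runx starts belong, and at 0.761% of 11295 of the second. Among 1032 genes with 2 starts at least 5 kb apart, both controls had a region at 69.8% of the upstream and 44.2% of the downstream starts, and 3.47% and 9.87% of these were absent from all mutants. Runx1 and Runx3 thus had the reverse of the more usual order, with the downstream start the more constant.

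**Figure D4:**
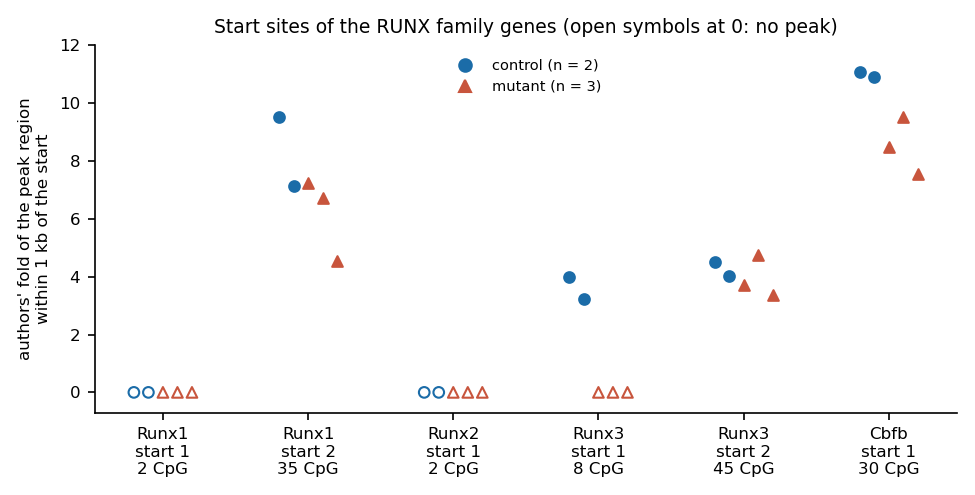
Authors' fold of the region within 1 kb of each RefSeq start of the members, 1 point per library, with open symbols at 0 where a library had no peak and the number of CpG under each start. The downstream starts of Runx1 and Runx3 and the start of Cbfb hold a peak in all 5 libraries, and the upstream start of Runx3 in the 2 controls only.

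Runx1, the blood member, spans 224.6 kb on the minus strand of chromosome 16 (92601466 to 92826074), with Rcan1 and Clic6 as the other genes in its window. Positions are given in kb from the upstream start in the direction of transcription. Its body held 18 regions, and a stretch of 66.8 kb, from 4.1 to 70.9 kb, held none in any library. Of the 24 regions in both controls, 4 were present in all mutants, and 2 of these were gene ends of the neighbours. The region at the end of Rcan1 had folds of 11.6 and 10.2 in the controls against 8.02, 9.85 and 8.58 in the mutants, and that of Clic6 had 4.68 and 3.50 against 3.86, 3.61 and 2.69. The others were the downstream start and a region at 220.1 kb (chr16:92605632-92606375), with 4.51 and 4.18 in the controls against 4.17, 5.42 and 3.70 in the mutants. Within Runx1 itself, constant opening was therefore limited to the P2 start and 1 region near the 3′ end of the gene.

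The strongest region of Runx1 that disappeared lay in the gene at 87.2 kb (chr16:92738077-92739436), between the P1 and P2 starts. Its folds were 5.90 and 6.47 in the controls, and no mutant had a peak. In both controls it ranked above the constant region at 220.1 kb, which all 3 mutants kept. Distal regions of its decile of control strength were absent in 23.6% of cases over the series. The other 11 regions lost from every mutant had mean control folds from 2.84 to 3.84, and 8 of the 12 lay in the lowest decile of control strength. They were spread from -128.1 kb (3.29 and 3.10) and -101.9 kb (3.99 and 3.50) before the gene to 307.3 kb (3.12 and 2.96), beyond its 3′ end. A loss near P1, at 3.7 kb (chr16:92821981-92822538), had folds of 3.12 and 2.83.

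Some Runx1 regions were kept by 1 or 2 mutants. The strongest, at 216.7 kb (chr16:92608181-92610012), had folds of 7.98 and 7.01 in the controls against 4.17 and 3.28 in mutants 1 and 2, with no peak in mutant 3. On either side of the P2 region lay 2 weaker ones. That at 130.3 kb had 4.33 and 3.23 in the controls and 3.70 in mutant 1 only. The one at 125.8 kb had 3.64 and 2.96 in the controls against 2.78 and 2.79 in mutants 1 and 2. A region before the gene at -58.0 kb (chr16:92883780-92884337) had 4.51 and 4.31 in the controls and 2.96 in mutant 2 alone. Mutant 3, the shortest list, had a peak in none of the 8 Runx1 regions kept by some mutants. The remaining 17 regions of Runx1 had a peak in only 1 control, 12 of them in control 1 and 5 in control 2 (29.3% and 12.2% of its regions, beside 19.7% and 10.3% of all regions), with folds from 2.60 to 4.16 in control 1 and from 2.83 to 5.52 in control 2.

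Runx2, the gene of the osteoblast factor, spans 318.8 kb on the minus strand of chromosome 17 (44495987 to 44814797). Over the whole window, body and 150 kb on each side, it had the thinnest cover of the 4 genes. The window held 3.56 regions per 100 kb, against 7.82 for Runx1, 15.4 for Runx3 and 9.79 for Cbfb. The start of Supt3, a gene of the opposite strand that encodes a transcription cofactor subunit, lies inside the body of Runx2. This start region, at 37.7 kb (chr17:44776568-44778018), had folds of 10.4 and 9.03 in the controls against 8.64, 9.03 and 8.07 in the mutants. It was the strongest region of the locus in every library, and it cannot be credited to Runx2.

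Inside Runx2, 3 distal regions were open in all 5 libraries. Because only 1 start of Runx2 was listed, its P2 was not examined, and whether any of these regions holds it was not tested. The region at 78.3 kb (chr17:44734313-44736836) had folds of 7.46 and 4.18 in the controls against 6.48, 7.88 and 4.21 in the mutants. The region at 212.8 kb (chr17:44601004-44602152) had 4.51 and 5.25 against 4.63, 4.76 and 4.04. The region at 204.2 kb (chr17:44610117-44611265) had 5.72 and 5.93 against 3.09, 3.28 and 3.36. Ranked within each library among the 4 constant regions, that at 204.2 kb ranked 3 in control 1 and 2 in control 2, and it ranked 4 in each of the 3 mutants. Another region of the body in both controls, at 196.4 kb, had 4.33 and 3.50 and was kept by mutant 3 alone, with 3.03.

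Loss at Runx2 was seen outside the gene and not inside it. All 3 regions of both controls that lay outside the body were absent from every mutant, whereas none of the 5 inside was. The lost regions stood at -44.3 kb (chr17:44858842-44859314, 3.47 and 2.96), at 382.0 kb (chr17:44432381-44433275, 3.99 and 5.79) and at 409.5 kb (chr17:44404718-44405325, 2.77 and 3.37), the latter 2 beyond the 3′ end. Of these, the region at 382.0 kb was stronger than the constant region at 212.8 kb in control 2 (5.79 against 5.25). In control 1 it was weaker (3.99 against 4.51). With so few regions this division is a description. Over the series distal regions inside any gene body were absent in 40.2% and those outside all bodies in 43.9%. That split is unlike the one for Runx2, since the lost region at -44.3 kb lies inside Supt3. The other 14 regions had a peak in at most 1 control: 9 only in control 1, 3 only in control 2, 1 in control 1 and mutant 3, and 1 only in mutant 1, at 76.2 kb with a fold of 4.32.

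Runx3, the gene that acts in cartilage maturation, spans 57.3 kb on the plus strand of chromosome 4 (135120645 to 135177990), with Clic4 and Srrm1 in its window. Its window had the densest cover of the 4. Of 25 regions in both controls 5 were open in all mutants, and 1 of these was the end of Clic4 (10.7 and 11.45 in the controls, 9.41, 9.85 and 8.58 in the mutants). The strongest in the gene, at 46.0 kb (chr4:135165705-135167747), had folds of 9.02 and 8.08 in the controls against 4.47, 7.39 and 3.20 in the mutants. It ranked below only the Clic4 end in both controls and in mutants 1 and 2. In mutant 3 it tied with the region at -53.6 kb, below the P2 start.

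Constant regions of Runx3 also lay outside the gene. The region at -53.6 kb (chr4:135066655-135067745) had folds of 5.03 and 4.58 in the controls against 4.32, 6.73 and 3.20 in the mutants. Beyond the 3′ end, the region at 85.8 kb (chr4:135206092-135206962) had 4.85 and 4.18 against 4.17, 4.76 and 2.86. The P2 start region was the fifth constant one.

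Just before P2, a pair of regions was kept by mutants 1 and 2 and not by mutant 3. The first, at 26.5 kb (chr4:135146423-135147535), had 7.46 and 6.60 in the controls against 3.70 and 2.79 in the mutants. In both controls it exceeded the P2 start region (4.51 and 4.04), in mutant 1 it had the same fold of 3.70, and in mutant 2 it lay below it (2.79 against 4.76). The other, at 29.8 kb (chr4:135149816-135150980), had 6.24 and 3.77 in the controls against 3.70 and 3.78 in mutants 1 and 2. A region at 54.9 kb, near the 3′ end, had 4.51 and 3.37 against 3.39 and 3.45. Mutant 3 had no peak in any of the 7 Runx3 regions that only some mutants kept.

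Loss at Runx3 lay mainly outside the body. Only 1 of the 7 body regions in both controls was absent from every mutant, at 8.5 kb (chr4:135128674-135129322, 3.12 and 3.23), against 12 of the 18 outside it, the P1 start region included. This is a description of few regions. At Runx1 6 of 11 body regions and 6 of 13 outside were lost. Over the series 40.2% of distal regions inside any gene body and 43.9% of those outside all bodies were lost. That split is unlike the one for the members, which uses the member's own body and includes gene ends. The strongest losses were far upstream, at -145.1 kb (chr4:134975143-134975798, 5.55 and 4.99) and at -118.0 kb (chr4:135002307-135002986, 4.68 and 4.99). Closer to the gene, neighbouring regions at -70.6 kb (3.99 and 3.50) and -69.6 kb (3.47 and 3.50) were lost together, as was that at -94.9 kb (3.29 and 2.96). Downstream, losses ran from 58.8 kb (3.64 and 2.56) to 192.8 kb (3.29 and 2.83), and those at 137.5 kb and 149.7 kb lay within Clic4. With the window reduced to 50 kb the share lost was 3 of 10 (30.0%), and within the gene and 1 kb of it 2 of 8 (25.0%).

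Cbfb, the gene of the shared partner, spans 47.3 kb on the plus strand of chromosome 8 (105170674 to 105217989) and has 17 other genes in its window. All 12 of its regions present in all 5 libraries were gene ends, and 11 of them lay beyond the gene, at neighbours such as E2f4 and Tradd. The distal regions of Cbfb did not share this constancy: none of the 5 in both controls was present in all mutants. The strongest, at -17.6 kb (chr8:105152399-105153524), had folds of 8.32 and 8.62 in the controls against 3.86 and 4.11 in mutants 1 and 2, and no peak in mutant 3. Nearer the start, the region at -6.3 kb (chr8:105164240-105164997) had 3.81 and 4.45 in the controls and was absent from every mutant. With regions assigned only to the gene with the nearest end, Cbfb kept 2 regions in both controls, of which 1 was lost.

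Lost regions were the weaker ones in the controls at each Runx gene, with some overlap. The mean control fold had a median of 3.17 over the 12 Runx1 regions lost from all mutants, 4.19 over the 8 kept by some and 6.34 over the 4 kept by all. For Runx2 the medians were 3.22 over 3 lost and 5.82 over 4 kept by all, and for Runx3 3.26 over 13 and 4.80 over 5. All regions of the series gave 3.73 and 7.32 for the same outcomes. In the lowest decile of control strength, all 8 Runx1, both Runx2 and all 7 Runx3 regions were absent from every mutant, where 70.5% of distal regions of the series were. Losses in the upper part of the range were few: the region at 87.2 kb in Runx1 and that at -145.1 kb of Runx3 were the only ones of the members above decile 6.

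**Figure D5:**
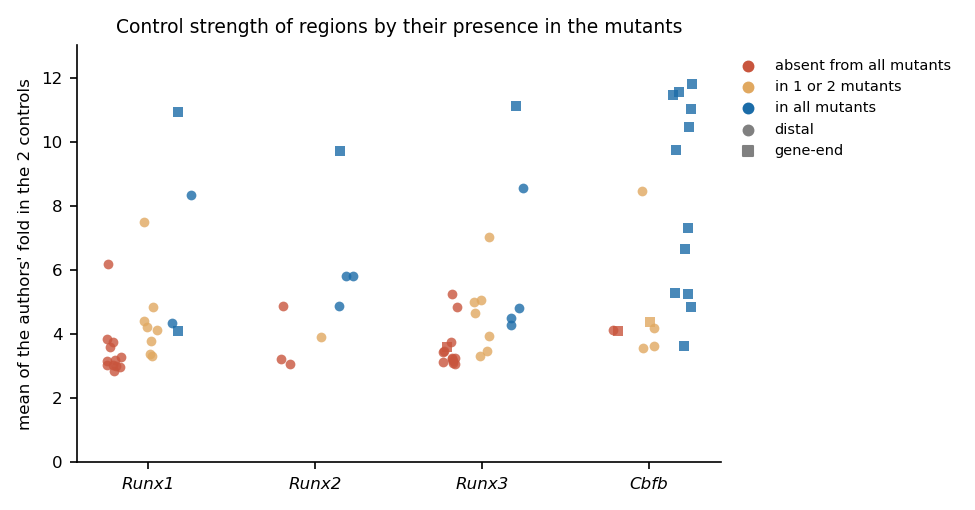
Mean of the authors' fold in the 2 controls for each region that both controls share, by member and by presence in the mutants, 1 point per region, with distal regions as circles and gene-end regions as squares. Lost regions of Runx1 and Runx3 have medians of 3.17 and 3.26, and regions kept by all mutants have 6.34 and 4.80.

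Genes that work with or under the RUNX factors were counted in the same way, with regions within 150 kb of each gene. Over 19 genes for RUNX partners, 53 of 245 regions of both controls were absent from every mutant (21.6%). Over 18 skeletal genes 44 of 222 were (19.8%), and over 16 blood genes 35 of 234 (15.0%). The medians over genes with at least 5 such regions were 23.1%, 22.9% and 12.9%, beside 16.7% over 16192 genes of the genome. The pooled shares lie below the 30.4% of all regions and the 28.1% of regions within 150 kb of a gene, and below the 29.0%, 29.9% and 28.2% that regions of the same class and strength gave. Among distal regions alone 32.7%, 26.8% and 19.6% were lost, beside 42.0% of all distal regions. The medians and the pooled shares thus differ in which side of the genome the partner and skeletal lists fall on, and nothing particular to a list is read from either. No region of these lists was present in all mutants and no control.

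Among the partners, the most losses were at Hdac4, a histone deacetylase that restrains RUNX2 in cartilage, with 8 of 13, and at Tle4, a Groucho corepressor, with 7 of 11. Regions of the same class and strength would have given 5.93 and 5.24. Most regions kept by all mutants were at Tle5 (23 of 36) and Tle2 (21 of 32), which lie side by side and share part of their windows, and lost 2 and 1 regions beside 10.2 and 8.36 for their class and strength. In the skeletal list, Vegfa, the vascular growth factor, lost 8 of 19 and Pth1r, the parathyroid hormone receptor, 8 of 26, beside 5.81 and 8.88 for their class and strength. Sp7, the osteoblast factor that acts after RUNX2, lost 1 of 31 and kept 17 in all mutants, and Bglap, the osteocalcin gene, lost 3 of 34 and kept 17. For those genes 7.87 and 9.09 lost regions correspond to class and strength. Of the blood genes, Fli1, an ETS factor, lost 8 of 18, and Ptprc (4 of 9) and Csf1r (4 of 14) followed in a tie. The counts for class and strength were 7.57, 3.65 and 4.15, close to those seen. Lyl1, a blood stem cell factor, kept 20 of 43 regions in all mutants and Itga2b, the platelet integrin, 14 of 22. They lost 3 and 1, beside 14.2 and 4.61 for class and strength. The windows of Lyl1, Sp7 and Bglap held 84, 56 and 55 regions. Regions counted for a named gene may belong to its neighbours, so the counts describe windows and not the control of that gene.

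Other genes had shares close to those of a member in all 5 libraries. Among 14876 genes with at least 10 regions, the smallest Euclidean distances to the 5 shares of Runx1 were those of Ift43 (4.23 percentage points), Esrrg (4.55) and Wasf1 (4.75). For Runx2 they were Tafa2 (5.51), Etv6 (6.13) and Gm46977 (7.07), and for Runx3 Optc (2.66), Tspan18 (5.38) and Glrx5 (6.06). Cbfb was nearest to Prr29 and Icam2 (2.89 each), which have the same 5 shares, and to Kndc1 (3.46). These distances describe 5 libraries and carry no test.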

How the data were processed

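Per the submitters' processing notes, bcl2fastq 2.20.0, Bowtie2 2.3.5, MACS2 and the mm10 assembly were used to make the peak lists. Not given in the sources used here are the MACS2 version and settings, duplicate removal and any shift of reads for the transposase. Settings of the caller and depth decide which weak regions are listed, and an omitted shift changes borders by a few bases. The authors deposited a separate list for every library, with a score, a fold enrichment (a linear ratio), and −log10 p and −log10 q per peak. Positions, folds, −log10 p and −log10 q of the deposited lists were used. The −log10 p chose the strongest summit of each merged region and the strongest peaks for lists of equal length.

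All peaks were merged at 1 bp of overlap, and gene bodies, gene ends (within 1 kb) and starts came from RefSeq, GRCm38.p6, with 21631 protein-coding genes. Per-library shares were compared by exact two-sided permutation over the 2 controls and 3 mutants, each from a separate embryo, with a threshold of 0.05 that p = 0.2, the smallest possible, cannot reach. Absent regions were counted beside all regions of the same class and decile of mean fold percentile in the controls. Members, lists and windows were chosen with earlier results of these data known. Named from the lists were the 2 genes with the most regions lost and the 2 with the most kept, and per member the 3 genes nearest in shares. The merging code was run on 20000 simulated regions, and the presence of every one was recovered. Simulated peaks of a region always overlapped each other and never a neighbouring region. Full recovery therefore checks the code only, and how real peaks split, shift or join was not tested. Alternatives were stricter −log10 q (5 and 10), lists of equal length, other windows, 50% overlap, nearest gene end, Runx2 alone, absence from at least 2 of 3 mutants, each library left out, and, chosen after seeing the data, distal regions and regions in at least 2 libraries. Python 3.11.15, pandas 2.3.3, numpy 2.4.6 and scipy 1.17.1 were used.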

Additional observations from a re-analysis of the deposited data

How the results depend on the processing

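Of 232 alternative values for 17 results, 204 held, 12 reversed and 16 moved. A difference held if it kept its direction, and a share lost if it stayed within the 95% interval of the main value. A count held if it was identical. These are loose rules, and a value that held may still have nearly vanished. The skeletal and blood contrast, 19.5 points in the main setting, held at 0.15 for a −log10 q of at least 10. The difference of Runx2, -43.2 points, held at -1.85 with lists of equal length. The interval for its share lost ran from 8.52 to 75.5%. With lists of equal length, the difference minus all regions reversed for Runx2 (2.32), Runx3 (2.32) and the 4 members together (1.35 points), that of Cbfb before subtraction was 1.75, the shares lost fell to 25.0% for Runx1, 0% for Runx2, 25.0% for Runx3, 0% for Cbfb and 11.1% for all, and 1 region was in all mutants and no control. A −log10 q of at least 10 reversed Runx2 (4.72) and all members (0.10). A −log10 q of at least 5 moved the share lost at Runx3 to 30.8%. Gene bodies with 1 kb reversed Runx2 (2.72) and Runx3 (11.45) and gave shares lost of 0% for Runx2, 25.0% for Runx3 and 0% for Cbfb. A flank of 50 kb gave Runx3 16.5 points and 30.0% lost. Nearest gene ends gave Runx3 12.01 and Cbfb -5.22 points, with 50.0% lost at Cbfb and 52.8% over all. Distal regions gave Runx3 2.33 points. The cause of these shifts was not tested.

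Leaving out 1 library at a time, the difference ranged from -72.8 to -53.7 for Runx1, -68.4 to -41.3 for Runx2, -56.1 to -30.0 for Runx3, -31.7 to -14.7 for Cbfb and -51.7 to -35.2 points for all. Minus all regions the ranges were -35.8 to -21.2, -25.0 to -0.33, -15.1 to -0.36, 9.31 to 16.6 and -9.37 to -5.94. Shares lost ranged from 50.0 to 72.2%, 37.5 to 66.7%, 51.4 to 59.5%, 10.5 to 30.8% and, for all members, 40.8 to 58.1%. The contrast of skeletal and blood members ranged from 10.8 to 30.0 points, and the count in all mutants and no control from 0 to 1. No paired analysis was possible because the labels give no replicate numbers that link a control to a mutant. Read totals could not be taken from peak lists, so absence near the lowest listed fold is not evidence of closed chromatin.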
